A study of Homo sapiens with 8 samples.

Results

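The genes described here encode the enzymes of central carbon metabolism, in 3 pathways: glycolysis with lactate dehydrogenase, the pentose phosphate pathway, and pyruvate oxidation with the tricarboxylic acid (TCA) cycle. A list of 53 gene symbols was matched to the gene identifiers of both deposited tables, and 42 symbols had a ratio in at least one siRNA column, out of 8801 gene identifiers in all. These were 16 of 21 glycolysis genes, 5 of 6 pentose phosphate genes and 21 of 26 pyruvate and TCA genes. The 11 genes without a listed ratio were ALDOA, ALDOC, ENO3, PFKFB2, PFKFB4, RPE, PDK2, PDK3, SUCLA2, PC and ME1. The listed members were selected on having a WT over Pcif1-KO ratio, and the list was drawn up with results of these data known, so the ratios are given as a description and no test was made on them.

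All values compare wild-type (WT) HEK293T cells, a transformed human embryonic kidney line, with Pcif1-KO cells of the same line, in which PCIF1, the methyltransferase that makes m6Am at capped mRNA 5′ ends, is knocked out. WT and Pcif1-KO cells were each transfected with 5 pmol of siRNA, which was scrambled (siScram) or directed against PCF11, a 3′ end processing factor (siPCF11), and nuclear RNA was taken 48 h later. Per the series' design text newly made RNA was labelled with s4U, and libraries read mRNA from the 3′ end. Each of the 4 groups was 1 library, the labels do not say whether Pcif1-KO is a single clone, and the depth is unknown because the tables hold ratios only. Of 16 marker genes of other lineages (blood, liver, muscle, endothelium and others) 0 had a listed ratio, while 6 of 8 genes of kidney lineage or known from HEK293 cells did, which is all that ratios can show about the cell type.

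Glycolysis splits glucose to pyruvate in the cytosol, and lactate dehydrogenase regenerates the NAD+ it needs. The pentose phosphate pathway branches off at glucose 6-phosphate, making NADPH in its oxidative arm and ribose for nucleotides, with a non-oxidative arm that returns carbon to glycolysis. Pyruvate dehydrogenase carries pyruvate into the mitochondrial TCA cycle, which feeds electrons to the respiratory chain. Proliferating cell lines are known for high glycolytic flux with lactate release.

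The 2 deposited tables also sort every gene into an m6Am or a non-m6Am class, and 32 of the 42 enzyme genes (76.2%) were in the m6Am class, against 48.8% of all 8801 genes. All 5 pentose phosphate genes and 15 of 16 glycolysis genes were m6Am genes, with the neuronal enolase ENO2 as the exception, while the pyruvate and TCA genes divided into 12 m6Am and 9 non-m6Am genes. m6Am can form only where transcription starts with an adenosine, so the annotated start of these genes bears on that class. For 24 of the 42 genes the RefSeq promoter table (GRCh38.p14, the assembly that hg38 names) gives a single start that lies at the 5′ end of the gene. The sequences below show 20 bases before the start, the first transcribed base in capitals and the 9 bases after it. They cover the pentose phosphate genes, the 3 subunits of NAD-dependent isocitrate dehydrogenase, and some other enzyme genes of both classes.
PGLS (chr19:17511629-17511658, plus strand, m6Am class): acggccgtagggagcgcttcCtcctccccg
PGD (chr1:10399044-10399073, plus strand, m6Am class): gggagccgctgcgggtctttCcctcactcg
RPIA (chr2:88691653-88691682, plus strand, m6Am class): ggagccgggggcgggacttcAgcggaggcc
TKT (chr3:53256013-53256042, minus strand, m6Am class): gcccccgccccgcgcccggcCtcggcagcc
TALDO1 (chr11:747444-747473, plus strand, m6Am class): gtcgccgccgccgccgccgcAgacccctcg
IDH3A (chr15:78149342-78149371, plus strand, m6Am class): cgtggggtgggcgcttgcgcActgccgctg
IDH3B (chr20:2664207-2664236, minus strand, m6Am class): ccgcgccagcttcaggcgtcActtcccacg
IDH3G (chrX:153794366-153794395, minus strand, m6Am class): gcaccccgtcgaactctcgcGagagcggta
MDH2 (chr7:76048086-76048115, plus strand, m6Am class): gtgtggaggtcgttggagtcActtccccgt
CS (chr12:56300321-56300350, minus strand, m6Am class): cgccggttcgtctactctttCcttcagccg
PDHB (chr3:58433823-58433852, minus strand, m6Am class): cccctctgttgtcgtttggcAgcggataga
PDHA1 (chrX:19343907-19343936, plus strand, non-m6Am class): ttacgactctgtcacgccgcGgtgcgactg
ENO1 (chr1:8878677-8878706, minus strand, m6Am class): tcggcgcgggcggcgcggacAgtatctgtg
ENO2 (chr12:6914560-6914589, plus strand, non-m6Am class): ccgcagccgccgccgccactGccactcccg
ME2 (chr18:50879098-50879127, plus strand, non-m6Am class): ggctcctcgcgccctcccctCtctcggccg
Of the 17 m6Am enzyme genes with such a start, 7 (41.2%) had A as the annotated first base, and of the 7 non-m6Am enzyme genes 1 (14.3%) did. Over all genes with such a start the shares were 50.7% of 2415 m6Am genes and 38.5% of 2233 non-m6Am genes. PGD, TKT and PGLS start with C in RefSeq although the authors placed them in the m6Am class, and so does CS. The sequences shown hold all 7 m6Am enzyme genes with A, but not DLST, the non-m6Am enzyme gene with A. They also leave out the m6Am genes PGK1, PFKL, LDHB, SUCLG1 and FH, which start with G or C. A RefSeq start is an annotation and was not measured in these cells, and how the authors assigned the class is not given in the sources used here.

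As a group the enzymes stood close to the middle of all genes, with individual enzymes on both sides. With siScram the ratio (log2, WT divided by Pcif1-KO), where positive means higher in WT, ranged from -0.72 for TPI1 to 0.58 for PGD over 41 genes, with 18 above 0 and 23 below it. Their median was -0.067 (middle 50% of genes -0.21 to 0.12), beside -0.0096 (-0.23 to 0.21) for all 7893 genes. With siPCF11 the 40 listed enzymes ran from -0.65 for PDHB to 1.08 for PGD, with 19 above 0 and a median of -0.025 (-0.23 to 0.14), beside -0.010 (-0.25 to 0.24) for all 8499 genes.

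A log2 ratio of 0.5 in size, a 1.41-fold difference, was used to count genes standing apart. With siScram 3 of 41 enzymes (7.32%) were at or above 0.5, namely PGD, IDH3A and ME2, beside 6.11% of all genes. At or below -0.5 were TPI1, TALDO1 and MDH2, again 3 of 41, beside 6.98% of all genes. With siPCF11 5 of 40 enzymes (12.5%) were at or above 0.5, which were PFKP, GAPDH, ENO1, PGD and CS, beside 8.81% of all genes, and PGK1 and PDHB (2 of 40, 5.00%) were at or below -0.5, beside 8.70%. These shares lie near those of all genes. At other limits with siScram 6 enzymes reached 0.3 and 7 reached -0.3 (14.6% and 17.1%, beside 16.7% and 18.7% of all genes), and 0 passed 1 in either direction (0.393% of all genes above and 0.519% below). With siPCF11 6 reached 0.3 and 8 reached -0.3 (15% and 20%, beside 20.1% and 20.8%), and PGD was the single enzyme above 1 (0.835% of all genes), with 0 below -1 (0.659%).

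**Figure D1:**
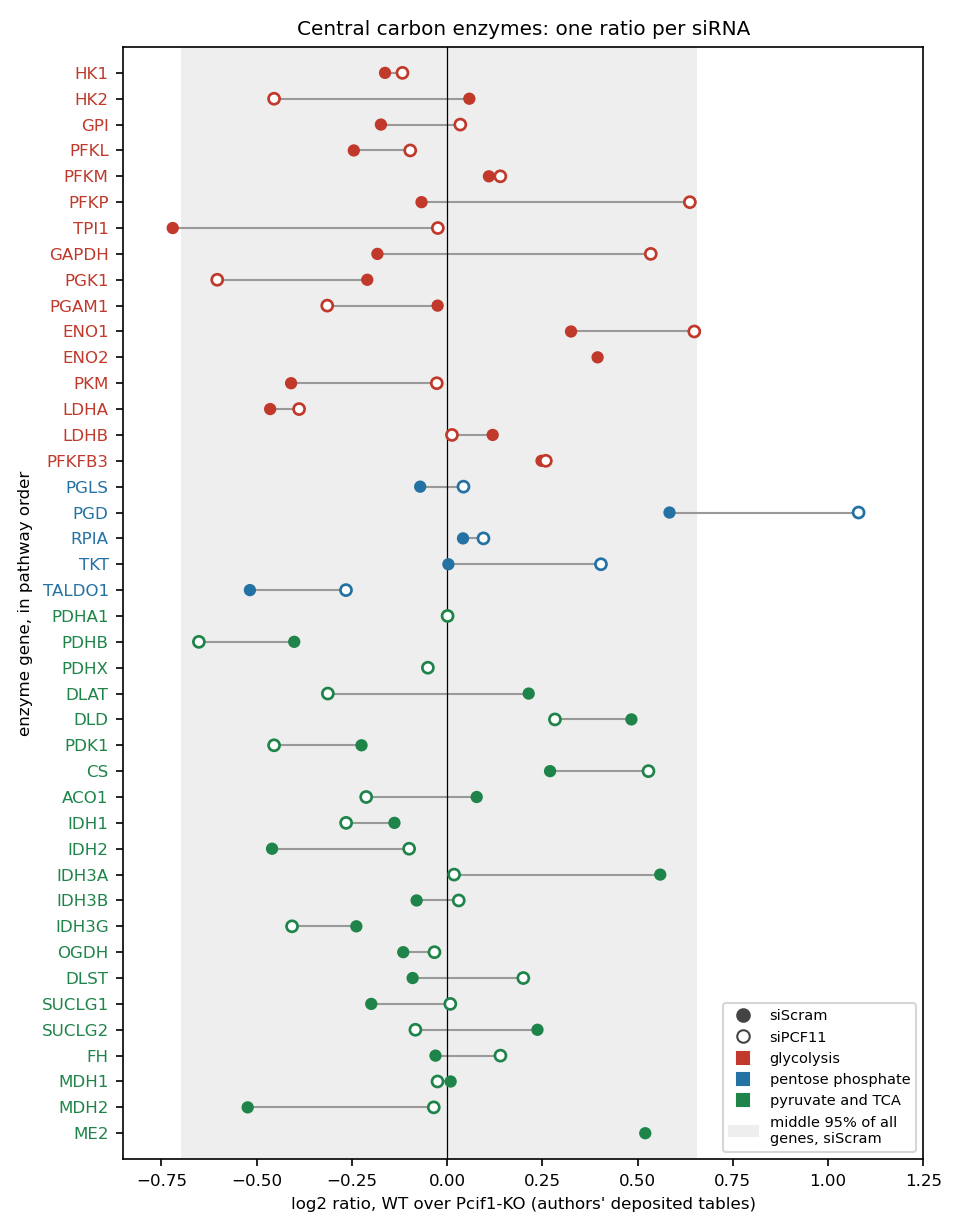
Log2 ratio of WT over Pcif1-KO (x axis) for the 42 enzyme genes in pathway order (y axis), coloured by pathway, with siScram as filled and siPCF11 as open points joined by a line, 1 library pair per point. The grey band holds the middle 95% of all genes with siScram (-0.70 to 0.65); TPI1 with siScram lies below it and PGD with siPCF11, at 1.08, lies above it.

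Single ratios need a yardstick for their error, and with 1 library per group the only one is the scatter between both library pairs. Over the 7591 genes with both ratios the difference siPCF11 minus siScram had an SD of 0.40 and a middle 95% from -0.76 to 0.80. That scatter holds counting error, culture differences and any true effect of the siRNA together. Whatever both library pairs share, such as a lasting difference between the WT and Pcif1-KO cells, cancels in it and is not measured. The difference of every enzyme lay inside that range, so no enzyme's ratio moved between the siRNAs by more than is common among all genes.

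In upper glycolysis, which spends ATP to phosphorylate and split the sugar, 5 of 7 genes were below 0 with siScram and the isozymes differed among themselves. Hexokinase traps glucose in the cell, and its ubiquitous form HK1 was at -0.16 with siScram and at -0.12 with siPCF11, per the authors' deposited table. HK2, the inducible hexokinase, was at 0.058 and -0.45 in the authors' deposited table. GPI, which isomerises glucose 6-phosphate, had -0.17 and 0.035 in the authors' deposited table. HK1 was thus slightly lower in WT with both siRNAs, while HK2 and GPI lay on opposite sides of 0.

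Phosphofructokinase commits sugar to glycolysis, and its 3 subunit genes gave 3 patterns. In the authors' deposited table the liver-type PFKL was at -0.24 with siScram and -0.097 with siPCF11. The muscle-type PFKM was at 0.11 and 0.14 in the authors' deposited table. The platelet-type PFKP (ENSG00000067057.16, hg38 chromosome 10, 3067548 to 3136805) was at -0.067 with siScram and 0.64 with siPCF11, per the authors' deposited table, a move of 0.70 from the middle of all genes to percentile 95.3. PFKFB3, which makes the phosphofructokinase activator fructose 2,6-bisphosphate, was steady at 0.25 and 0.26 in the authors' deposited table.

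Triose phosphate isomerase, TPI1 (ENSG00000111669.14, hg38 chromosome 12, 6867420 to 6870948), equilibrates both trioses and had the lowest ratio of all the enzymes with siScram. It was at -0.72 in the authors' deposited table, 1.65-fold higher in Pcif1-KO cells and at percentile 2.24 of all genes, but at -0.024 with siPCF11. GAPDH, the next enzyme of the pathway and a near neighbour on chromosome 12 (6534517 to 6538371), was at -0.18 with siScram and 0.53 with siPCF11, per the authors' deposited table. The 2 genes were 0.54 apart on the log2 scale with siScram and 0.56 apart with siPCF11, with GAPDH the higher each time.

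The later steps return ATP. PGK1, the first ATP-forming kinase, lies on chromosome X and was at -0.21 with siScram and -0.60 with siPCF11, per the authors' deposited table. The mutase PGAM1 was at -0.025 and -0.31 in the authors' deposited table. PKM, which encodes the muscle-type pyruvate kinases, was at -0.41 with siScram and -0.027 with siPCF11, per the authors' deposited table. Enolase differed from these. ENO1, the widely expressed form, was at 0.33 and 0.65 in the authors' deposited table, and ENO2 was listed with siScram alone, at 0.40, the highest glycolysis ratio with that siRNA. Lower glycolysis thus held genes well above and well below 0. PGK1, PGAM1 and PKM were below 0 with both siRNAs, but PGAM1 with siScram and PKM with siPCF11 lay close to it.

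Lactate dehydrogenase subunits are encoded by LDHA, which prevails in glycolytic tissue, and LDHB, which prevails in heart. LDHA (ENSG00000134333.13, hg38 chromosome 11, 18394563 to 18408425) was below 0 with both siRNAs, at -0.46 and -0.39 in the authors' deposited table. LDHB was at 0.12 and 0.013 in the authors' deposited table. Several of these genes have processed pseudogenes. RefSeq names 65 pseudogenes after GAPDH, 13 after PGAM1, 6 after LDHA and 4 each after TPI1 and ENO1, and 21 of the 42 enzymes have at least 1, so their ratios are uncertain as far as reads could be shared with a copy.

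The pentose phosphate pathway held the highest ratio of all the enzymes and a low one side by side. PGD (ENSG00000142657.20, hg38 chromosome 1, 10399064 to 10420511), 6-phosphogluconate dehydrogenase of the NADPH-making arm, was at 0.58 with siScram and 1.08 with siPCF11, per the authors' deposited table. That is 1.5-fold and 2.11-fold higher in WT, at percentiles 96.3 and 99.4 of all genes. PGLS, the lactonase before it in the same arm, was at -0.071 and 0.043 in the authors' deposited table.

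In the non-oxidative arm, transaldolase TALDO1 (ENSG00000177156.10, hg38 chromosome 11, 747464 to 765012) was lowest, at -0.52 with siScram and -0.27 with siPCF11, per the authors' deposited table. Transketolase TKT, which works with it on the same sugars, was at 0.0034 and 0.40 in the authors' deposited table. RPIA, the ribose 5-phosphate isomerase, was at 0.042 and 0.096 in the authors' deposited table. PGD and TALDO1 therefore lay on opposite sides of 0 with both siRNAs, and TKT and RPIA between them.

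The pyruvate dehydrogenase complex showed unlike ratios for subunits of the same assembly. The E1 alpha subunit PDHA1 was at 0.0021 with siScram and 0.0013 with siPCF11, per the authors' deposited table. Its partner E1 beta, PDHB (ENSG00000168291.12, hg38 chromosome 3, 58427630 to 58433832), was at -0.40 and -0.65, the lowest ratio of all the enzymes with siPCF11, per the authors' deposited table. The E2 core DLAT was at 0.21 and -0.31 in the authors' deposited table. DLD, the E3 subunit shared with the 2-oxoglutarate dehydrogenase complex, was on the high side with both, at 0.48 and 0.28 in the authors' deposited table. The E3-binding PDHX was listed with siPCF11 alone, at -0.050 in the authors' deposited table. PDK1, a kinase that switches the complex off, was at -0.22 and -0.45 in the authors' deposited table. The siPCF11 ratio was below the siScram ratio in PDHB, DLAT and DLD, beside 49.2% of all genes, and PDHA1 was level.

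In the TCA cycle 5 of 14 genes were above 0 with siScram and 6 of 14 with siPCF11. Citrate synthase, CS, which opens the cycle, was at 0.27 and 0.53 in the authors' deposited table. ACO1, the cytosolic aconitase that also acts as an iron sensor, was at 0.078 and -0.21 in the authors' deposited table. The 3 subunits of NAD-dependent isocitrate dehydrogenase, the rate-setting enzyme of the cycle, stood apart from each other. The catalytic alpha subunit IDH3A (ENSG00000166411.13, hg38 chromosome 15, 78149362 to 78171945) was at 0.56 with siScram, percentile 95.8 of all genes, but at 0.018 with siPCF11, per the authors' deposited table. IDH3B was at -0.080 and 0.031, and IDH3G at -0.24 and -0.41 in the authors' deposited table. All 3 are m6Am genes, and the annotated first bases shown above are A for IDH3A and IDH3B and G for IDH3G. Of the NADP-dependent forms, the cytosolic IDH1 was at -0.14 and -0.26 and the mitochondrial IDH2 at -0.46 and -0.10 in the authors' deposited table.

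The 2-oxoglutarate dehydrogenase subunits OGDH and DLST stayed near the middle, OGDH at -0.12 and -0.033 and DLST at -0.090 and 0.20 in the authors' deposited table. Succinyl-CoA ligase makes nucleotide triphosphate in the cycle, and its shared alpha subunit SUCLG1 was at -0.20 and 0.0085, its GTP-forming beta subunit SUCLG2 at 0.24 and -0.083 in the authors' deposited table. Fumarase, FH, was at -0.030 and 0.14 in the authors' deposited table. The malate dehydrogenases differed with siScram, where the cytosolic MDH1 was at 0.0093 and the mitochondrial MDH2 (ENSG00000146701.11, hg38 chromosome 7, 76048106 to 76067508) at -0.52 in the authors' deposited table. With siPCF11 they were level, at -0.025 and -0.035 in the authors' deposited table. ME2, the mitochondrial malic enzyme, was listed with siScram alone, at 0.52 in the authors' deposited table. FH and IDH3B were nearest the pathway's siScram median, and MDH2 and IDH3A marked its ends.

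The question of whether the genotype ratio differs when PCF11 is targeted can be asked of the 39 enzymes with both ratios, which come from separate libraries. Of these, 26 (66.7%) were on the same side of 0 with both siRNAs, 15 below and 11 above, beside 61.7% of all 7591 genes. Pearson's r between both ratios was 0.50 across the 39 enzymes and 0.43 across all genes, where genes of one library pair are not independent. PGD was the single enzyme past 0.5 on the same side with both.

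The siPCF11 ratio exceeded the siScram ratio by 0.5 or more in PFKP (0.70), TPI1 (0.70) and GAPDH (0.72), 3 of 39 enzymes (7.69%), beside 10.9% of all genes. It was lower by 0.5 or more in HK2 (-0.51), DLAT (-0.53) and IDH3A (-0.54), again 3 of 39, beside 9.91% of all genes. All 3 enzymes with the largest upward difference belong to glycolysis. By pathway the difference was above 0 in 11 of 15 glycolysis genes (median 0.076), in 5 of 5 pentose phosphate genes (median 0.25) and in 8 of 19 pyruvate and TCA genes (median -0.034). Over all genes it was above 0 in 50.8%, with a median of 0.0072. After the median of the neighbouring genes in its 10 Mb window was taken from each ratio (window centring), 3 of 5 pentose phosphate differences were above 0, with a median of 0.13, and 11 of 15 glycolysis differences, with a median of 0.058.

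**Figure D2:**
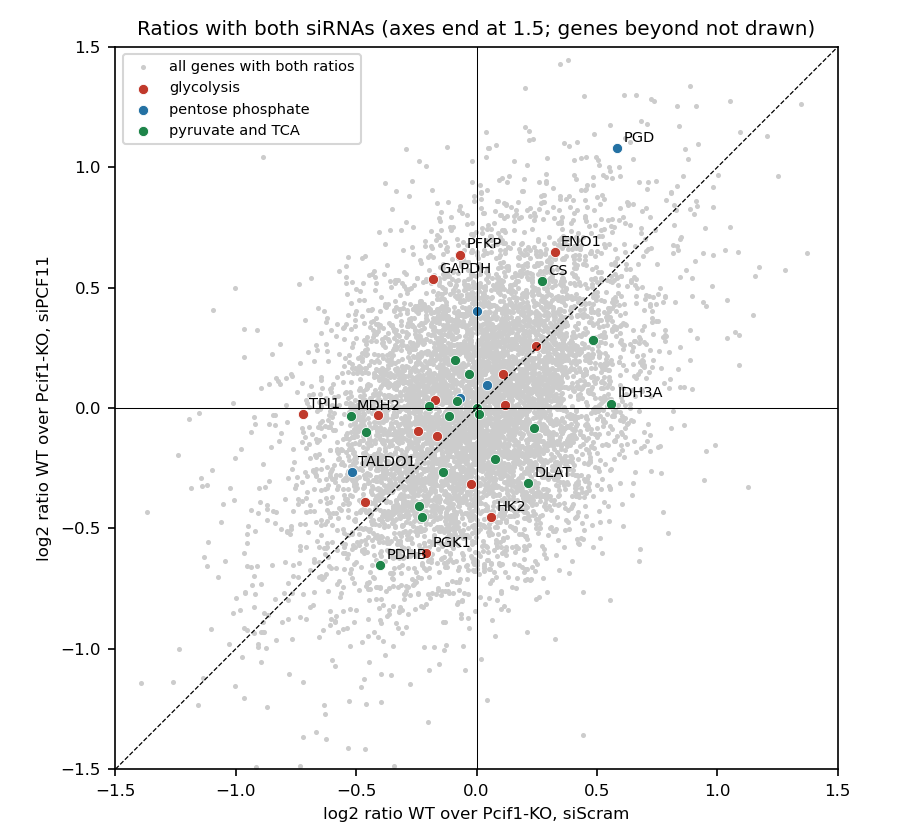
Log2 ratio with siScram (x axis) against siPCF11 (y axis) for the 39 enzymes with both, coloured by pathway, over all genes in grey, 1 point per gene, with the dashed line marking equal ratios. Named enzymes are past 0.5 in either ratio or in their difference; PGD is at the upper right at 0.58 and 1.08, PFKP and GAPDH lie above 0.5 with siPCF11 alone, and TPI1 and MDH2 below -0.5 with siScram alone.

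Several enzyme genes lie in chromosome regions whose genes stood away from 0 as a group. Chromosome 11 had medians of -0.29 with siScram (443 genes) and -0.27 with siPCF11 (456 genes), and chromosome 20 of 0.29 and 0.37. These medians were taken over all listed genes of the chromosome, metabolic ones included. For 8 enzymes the neighbours in the 10 Mb window had a median of at least 0.2 in size with one siRNA or both. With siScram PGD, ENO1, LDHA and TALDO1 were on the same side of 0 as their window. PFKL, IDH3B and DLAT were on the other side, and PDHX had no siScram ratio. The windows of PGD and ENO1 near the end of chromosome 1 stood at 0.27 and 0.25 with siScram and at 0.36 and 0.44 with siPCF11. Centred on its window, PGD was at 0.32 and 0.72, still the highest pentose phosphate enzyme, while ENO1 came to 0.071 and 0.21. PGD was then no longer the highest of all the enzymes. That was IDH3A at 0.59 with siScram and PFKP at 0.75 with siPCF11.

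On chromosome 11 the windows were below 0. TALDO1 came to -0.17 and -0.038 after window centring, its window having stood at -0.35 and -0.23, and LDHA came to -0.29 and -0.069. DLAT came to 0.50 and -0.023, and PDHX to 0.35 with siPCF11. On chromosomes 20 and 21 centring went the other way, with IDH3B at -0.41 and -0.32 and PFKL at -0.44 and -0.46, both lower in WT relative to their neighbours. TPI1, GAPDH, PFKP, PDHB, MDH2 and IDH3A moved by at most 0.11 under window centring.

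**Figure D3:**
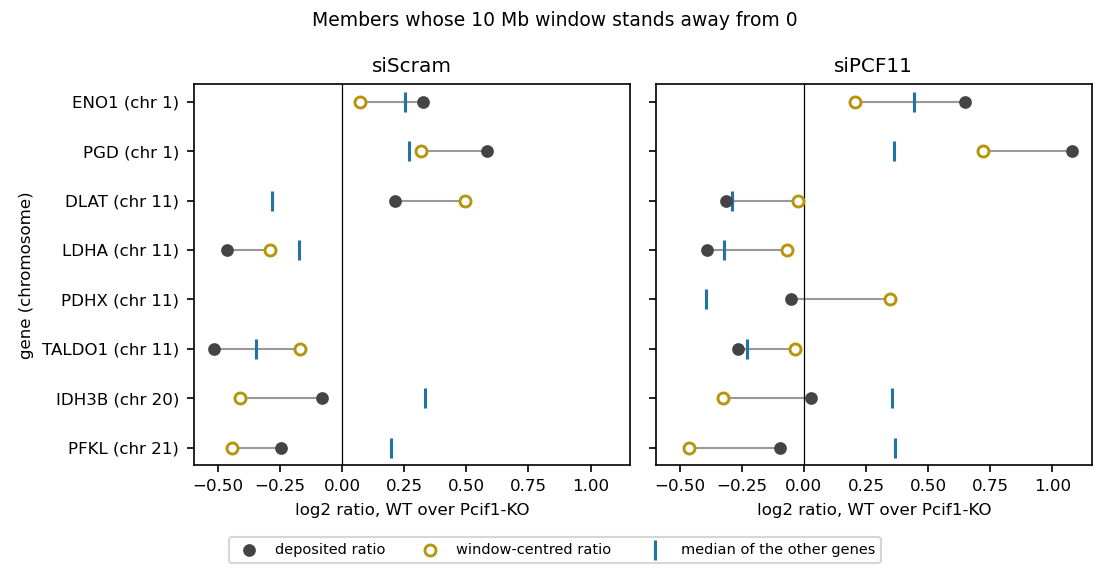
Log2 ratio of WT over Pcif1-KO (x axis) for the 8 enzyme genes whose 10 Mb window had a median of at least 0.2 in size (y axis, with chromosome), siScram left and siPCF11 right. Filled points are the deposited ratio, blue ticks the median of its neighbours in the window and open points the centred ratio; TALDO1 and ENO1 move towards 0, and IDH3B and PFKL move to about -0.4.

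Set against each other, glycolysis and pyruvate and TCA overlapped widely, while the middle 50% of the 5 pentose phosphate genes left out some medians. In full the pentose phosphate genes ran from -0.52 to 0.58 with siScram and from -0.27 to 1.08 with siPCF11. With siScram the median was -0.11 for glycolysis (10 of 16 below 0), 0.0034 for the pentose phosphate pathway (2 of 5 below 0) and -0.055 for pyruvate and TCA (11 of 20 below 0). With siPCF11 the medians were -0.024 (8 of 15 below 0), 0.096 (1 of 5) and -0.034 (12 of 20). The middle 50% of glycolysis genes (-0.22 to 0.11) and of pyruvate and TCA genes (-0.21 to 0.22) with siScram each held the medians of the other pathways. That of the pentose phosphate genes with siScram (-0.071 to 0.042) left out the glycolysis median. With siPCF11 it was 0.043 to 0.40 and left out both other medians. The middle 50% of pyruvate and TCA genes with siPCF11 (-0.23 to 0.021) left out the pentose phosphate median. That of glycolysis genes (-0.22 to 0.20) held it. After window centring the middle 50% of pentose phosphate genes with siPCF11 was -0.038 to 0.32. It then held the glycolysis median (-0.0050) but not that of pyruvate and TCA (-0.044). Whether the pathways differ was not tested. Without the enzymes on chromosomes 11, 20, 21 and X the glycolysis median with siScram was -0.025.

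Enzymes and carriers next to these pathways were taken from a separate list. Of 9 listed genes of glucose uptake and metabolism 6 (66.7%) were below 0 with siScram (median -0.14), beside 51.1% of all genes. They ran from the neuronal-type glucose transporter SLC2A3 at -0.33 to the ADP-dependent glucokinase ADPGK at 0.21 in the authors' deposited table. With siPCF11 their median was 0.049. SLC2A1, the main glucose transporter of dividing cells, was at -0.14 and 0.058 in the authors' deposited table. Of 5 further pentose phosphate genes 3 (60%) were below 0 with siScram, beside the same 51.1%. PRPS1, which turns ribose 5-phosphate into PRPP for nucleotides, was lowest at -0.63 with siScram and -1.24 with siPCF11, per the authors' deposited table. PRPS1 lies on chromosome X, and relative to its window it was at -0.49 and -0.91. Its paralogue PRPS2 was highest of that list with siScram, at 0.26, and at -0.17 with siPCF11, per the authors' deposited table.

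Of the 17 further pyruvate and TCA genes with a siScram ratio 10 were below 0 (median -0.062), and of 16 with siPCF11 11 were (median -0.15). These are 58.8% and 68.8%, beside 51.1% of all genes with each siRNA. Whether these small lists differ from all genes was not tested. ACLY, which splits citrate to make cytosolic acetyl-CoA, was lowest with both, at -0.58 and -0.66 in the authors' deposited table. The succinate dehydrogenase subunit SDHB was highest with siScram at 0.68 and was at 0.27 with siPCF11, per the authors' deposited table.

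**Figure D4:**
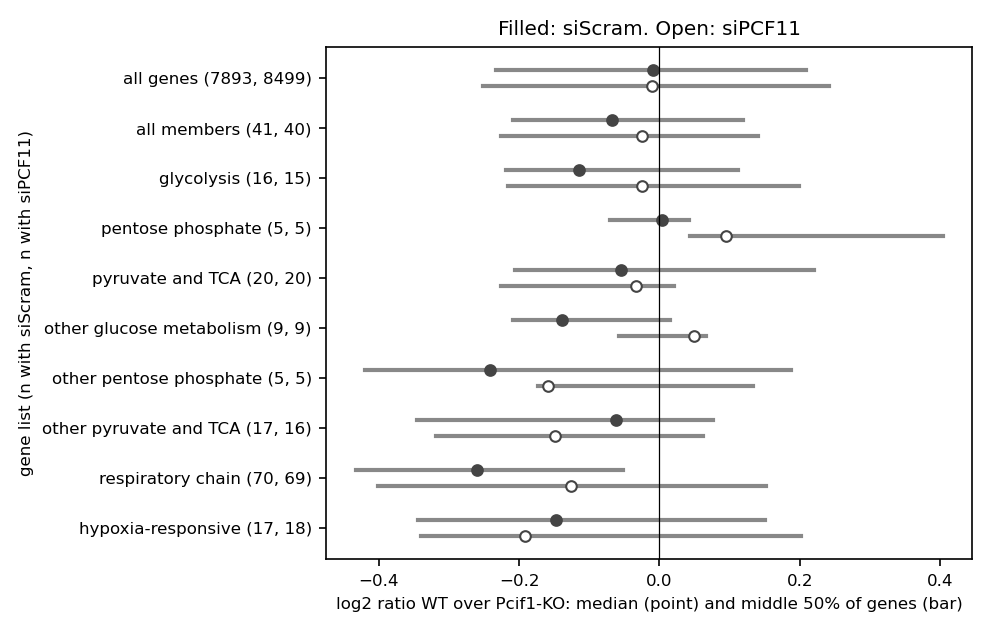
Median log2 ratio of WT over Pcif1-KO (points) with the middle 50% of genes (bars) for all genes, the 3 pathways and neighbouring gene lists, siScram filled and siPCF11 open, with the number of genes with each siRNA in brackets. The medians of the 3 pathways lie within 0.12 of 0 with both siRNAs, and the respiratory chain list, which leaves out complex II, is lower, at -0.26 with siScram.

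Divided by the authors' methylation class, the enzymes differed in how the siPCF11 ratio compared with the siScram ratio. It was the higher of the pair in 23 of 32 m6Am enzymes (median difference 0.11) and in 1 of 7 non-m6Am enzymes, the 2-oxoglutarate dehydrogenase core DLST (median difference -0.23). Over all genes it was higher in 52.6% of m6Am and 48.7% of non-m6Am genes, with medians of 0.025 and -0.014. The non-m6Am enzymes with both ratios were PDHA1, DLAT, PDK1, ACO1, IDH1, DLST and SUCLG2, all pyruvate or TCA genes, so outside that pathway the classes could not be compared. Within it the siPCF11 ratio was the higher in 7 of 12 m6Am genes (median difference 0.096) and in 1 of 7 non-m6Am genes (median -0.23). After window centring this became 7 of 12 (median 0.073) and 2 of 7 (median -0.030), and whether the classes differ was not tested. With siScram the m6Am enzymes had a median of -0.075 and the non-m6Am enzymes 0.078, and with siPCF11 the order was turned, at 0.011 and -0.15. By the authors' length class, 29 enzymes (69.0%) were long genes, beside 60.0% of all genes, and with siScram long enzymes had a median of -0.014 and short ones of -0.080 (0.0031 and -0.027 over all genes). With siPCF11 the order was turned, at -0.030 for long and 0.0071 for short enzymes, as it was over all genes, at -0.030 and 0.022.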

How the data were processed

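The authors deposited log2 ratios of WT over Pcif1-KO for 8801 gene identifiers in 2 tables (long and short genes) and 8 columns, by m6Am class and siRNA, per the tables' titles and labels. The submitters' processing notes list, without roles, DESeq2 1.30.1, HTSeq 2.0.1, STAR 2.7.10a, cutadapt 3.7 and bcl2fastq 2.20, with the build hg38. Library scaling, any shrinkage of the ratios and the rule for listing a gene were not stated there or in the labels, and the depth per sample is unknown. The ratios rest on 4 of 8 libraries, 1 per group, so no p-value was computed and no spread between replicates exists. The other 4 libraries, Pcif1-KO cells with EGFP, PCIF1-CD or PCIF1-WT, were not used here.

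Symbols were found for 8792 identifiers and RefSeq spans (GRCh38.p14) for 8725. Medians, counts past 0.5 and percentiles were computed with Python 3.11.15 and pandas 2.3.3. Ratios were also centred on all genes, on the other genes of the chromosome, or on those of the 10 Mb window (at least 15 genes, otherwise the chromosome). The arithmetic was checked with known shifts added to shuffled ratios, which cannot show whether a centring suits these data. Members and lists were chosen with earlier results of these data known. Named enzymes are those past 0.5 with either siRNA, pathway extremes and those nearest the median, the 5 largest differences between siRNAs and isozymes. The remaining enzymes were named so that each is accounted for, and SLC2A1 was chosen after their values were seen. 3′ end reads also depend on the cleavage site used.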

Additional observations from a re-analysis of the deposited data

Results flagged for a closer look

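In 4 of the 39 enzymes with both ratios the siScram and siPCF11 ratios lay on opposite sides of 0 and at least 0.5 apart. The difference siPCF11 minus siScram was 0.72 for GAPDH, 0.7 for PFKP, -0.51 for HK2 and -0.53 for DLAT. GAPDH and PFKP were lower in WT with siScram and higher with siPCF11, and HK2 and DLAT the reverse. Over all genes 15.3% met the same condition, against 10.3% of the enzymes. With 1 library per group these differences were not tested.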

How the results depend on the processing

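Centring on all genes, on the other genes of the chromosome or of the 10 Mb window reversed no enzyme ratio past 0.5, and 15 of 243 single values moved by more than 0.28, which is the SD of the difference between the library pairs (0.40) divided by the square root of 2. Of the 12 medians and 4 counts, the following moved. Without the enzymes on chromosomes 11, 20, 21 and X the siScram glycolysis median was -0.025 and the siPCF11 pentose phosphate median 0.25. Taken as a mean over all 5 genes instead, the siPCF11 pentose phosphate value was 0.27. Enzymes at or above 0.5 with siScram numbered 5 after chromosome centring, 6 at a limit of 0.3 and 0 at a limit of 1. Those at or below -0.5 with siScram numbered 1 after chromosome and after window centring, 7 at 0.3 and 0 at 1. With siPCF11 those at or above 0.5 numbered 3 after window centring and 1 at a limit of 1. Those at or below -0.5 numbered 1 after chromosome centring, 1 without the 4 chromosomes, 8 at 0.3 and 0 at 1. Fewer genes pass a higher limit by construction, and for the other settings the cause was not tested. No paired analysis was possible because each group has 1 library. No depth, level or error is given per gene, so a ratio of a weakly expressed enzyme cannot be told from a well measured one.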

Other observations

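The respiratory chain and ATP synthase genes had lower medians than the enzymes with both siRNAs. Of 70 respiratory chain and ATP synthase subunit genes 55 were below 0 with siScram (median -0.26), and 46 of 69 with siPCF11 (median -0.13), which is 78.6% and 66.7%, beside 51.1% of all genes with each siRNA. After window centring the medians were -0.22 and -0.14. The list leaves out complex II (succinate dehydrogenase), which was counted among the further pyruvate and TCA genes. In the authors' deposited table SDHA was at 0.21 with siScram and -0.54 with siPCF11, and SDHB at 0.68 and 0.27. SDHC was at -0.35 and -0.41 and SDHD at -0.12 and -0.11. The pyruvate and TCA enzymes, only some of which supply NADH to the chain, had medians of -0.055 and -0.034. Whether the lists differ was not tested.

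Hypoxia-responsive genes outside the glycolysis list, many of them targets of the same HIF factors that induce glycolytic enzymes, had a median of -0.15 over 17 genes with siScram and -0.19 over 18 with siPCF11. The medians of all genes were -0.0096 and -0.010. Below 0 were 64.7% and 61.1% of the list, beside 51.1% of all genes with each siRNA. After window centring the list's medians were -0.046 and -0.15. Whether the list differs from all genes was not tested. ADM, which encodes the vasodilator peptide adrenomedullin, was lowest at -1.38 and -1.57 in the authors' deposited table, and at -1.21 and -1.25 relative to its window on chromosome 11. KDM3A, a histone demethylase, was highest with siScram at 0.77 and was at -0.27 with siPCF11, per the authors' deposited table.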
